A study of Mus musculus with 2 samples.

Results

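The genes examined here are 31 genes of cholesterol synthesis, uptake and export, taken by their symbols from a fixed list, and all 31 were found among the 23183 genes of the mRNA sequencing (RNA-seq) data. They comprise 19 enzymes of synthesis, which run from acetyl-CoA to cholesterol, and 12 genes of control, uptake, transfer and export. RNA-seq was performed in 2 libraries of a mouse lung cancer cell line. KPR- cells are an immortalized line from lung tumors of KPR L/F mice, which carried *Runx3* flox/FSF, *K-Ras* LSL-G12D/+ and *p53* flox/flox together with a Tomato reporter and *Flp*ERT2, and which had received a Cre adenovirus (CMV promoter) through the nose. In both libraries Cre had therefore switched on oncogenic *K-Ras*, removed *p53* and inactivated the floxed *Runx3* allele. In KPR_restored cells, 4-hydroxytamoxifen (4-OHT) had activated the Flp recombinase, which excises the *Frt-Stop-Frt* (FSF) cassette from the remaining *Runx3* allele. The labels place KPR- at 0 h and KPR_restored at 16 h, and give *Runx3* genotypes of -/- and -/+, but list 1 μM 4-OHT for both. Each condition is 1 library, so no difference below has a replicate check and no p-value was computed. Whether the line is a single clone, or the libraries came from separate cultures, is not given in the sources used here. Since treated cells without restoration were not analysed here, an effect of *Runx3*, of 4-OHT and of hours in serum-containing medium cannot be told apart.

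Cells build cholesterol from acetyl-CoA through mevalonate, farnesyl diphosphate, squalene and lanosterol. The supply of these enzymes is set mainly by the SREBP transcription factors, which are held in the endoplasmic reticulum by Scap and the Insig proteins while sterols are plentiful and which travel to the Golgi to be cut free when sterols run low. Cholesterol taken up with lipoproteins leaves the lysosome through Npc2 and Npc1, and an excess of sterol activates the LXR receptors, which turn on the export pumps Abca1 and Abcg1. In lung cancer cells the same pathway provides the prenyl groups that anchor Ras-family proteins to membranes.

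The stretches of DNA before the start sites of 4 synthesis genes are shown because SREBP works at such promoters together with NF-Y, a factor that binds the CCAAT box. These are the bases just upstream of a RefSeq start on GRCm38.p6, read 5′ to 3′ on the strand of the gene. *Pmvk* also has a later RefSeq start, whose window (chr3:89459321-89459620) holds no CCAAT box. They lie at chr3:89454381-89454540 for *Pmvk* (plus strand, 160 bases), chr13:119690101-119690350 for *Hmgcs1* (plus strand, 250 bases), chr5:114444089-114444268 for *Mvk* (plus strand, 180 bases) and chr8:64733579-64733748 for *Msmo1* (minus strand, 170 bases). Capitals mark each CCAAT box on either strand (CCAAT or ATTGG) and, in *Hmgcs1*, also the sterol regulatory element (SRE) core TCACNCCAC.
Pmvk: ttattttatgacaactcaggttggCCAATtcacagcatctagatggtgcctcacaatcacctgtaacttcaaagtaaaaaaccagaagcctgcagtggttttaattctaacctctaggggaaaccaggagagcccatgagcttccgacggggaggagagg
Hmgcs1: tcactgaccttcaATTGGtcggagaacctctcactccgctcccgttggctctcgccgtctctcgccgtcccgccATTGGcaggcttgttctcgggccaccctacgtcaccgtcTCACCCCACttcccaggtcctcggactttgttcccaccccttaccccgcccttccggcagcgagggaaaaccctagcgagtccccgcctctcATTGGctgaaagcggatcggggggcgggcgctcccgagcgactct
Mvk: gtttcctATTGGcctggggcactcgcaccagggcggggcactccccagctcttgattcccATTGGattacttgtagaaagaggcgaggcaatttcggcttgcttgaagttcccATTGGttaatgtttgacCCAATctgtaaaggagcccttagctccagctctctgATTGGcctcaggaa
Msmo1: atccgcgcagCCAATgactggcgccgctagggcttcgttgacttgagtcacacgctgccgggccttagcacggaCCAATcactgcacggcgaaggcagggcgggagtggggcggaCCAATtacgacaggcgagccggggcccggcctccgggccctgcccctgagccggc

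In the windows of the RefSeq table, which run from 250 bases before to 50 after each start, 25 of the 31 genes have an entry, with 33 windows in all. No entry was available there for *Fdps*, *Npc1*, *Abcg1*, *Sqle*, *Fdft1* and *Stard4*, so the shares below leave these genes out. A CCAAT box on either strand was found in 22 of the 33 windows (66.7%), beside 37.4% of the 32851 windows of all genes. The SRE core was in 1 window, that of *Hmgcs1*, beside 1.24% of all windows. The core of the RUNX motif (TGNGGT on either strand), searched because *Runx3* was the restored gene, was in 12 of the 33 windows (36.4%), beside 45.8% of all. In *Hmgcs1* the RUNX match overlaps the SRE core. A match is a string of letters and does not show that a factor binds there. Only these exact strings were searched, so a window without a match may still hold a site with other letters.

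Of the 19 synthesis enzymes, 9 were called higher in KPR_restored than in KPR- and none lower. Among the genes of control, uptake and export, 10 had a mean FPKM of at least 1. None of these 10 was called higher and 1 was called lower, near the 12.1% and 9.29% of all genes. Values are FPKM (fragments of a gene scaled to its transcript length and to the mapped fragments of the library), and the difference of a gene is log2(FPKM + 0.005) in KPR_restored minus that in KPR-. A gene was called higher or lower where the difference reached 0.5 (1.41-fold) and its mean FPKM over both libraries was at least 1. Of the 31 genes, 29 passed this FPKM filter, and *Abca1* and *Mylip* did not. Among the 29, 9 were called higher, beside 12.1% of all 11231 genes that passed, and 1 was called lower, beside 9.29% of all. The 1 lower gene was *Abcg1*. The median difference was 0.31 over the 29 genes, 0.47 over the 19 enzymes and -0.024 over the 10 others, beside 0.0086 over all 11231 genes, whose quartiles were -0.23 and 0.27. A difference above 0 was seen in 17 of the 19 enzymes and in 5 of the 10 others, beside 51.0% of all genes.

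**Figure D1:**
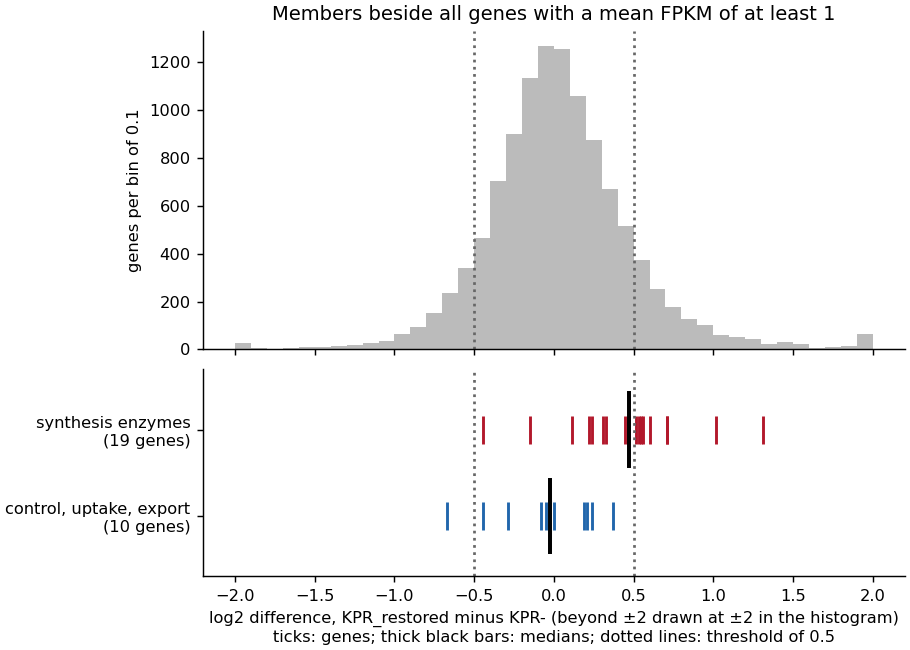
Histogram of the log2 difference (KPR_restored minus KPR-, x axis) of all 11231 genes that passed the FPKM filter, as genes per bin (y axis), above the single values of the 19 synthesis enzymes and the 10 other members that passed the filter. The median of the enzymes lies at 0.47, just under the dotted threshold of 0.5, and that of the others at -0.024.

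In FPKM summed over the 19 enzymes, 980 in KPR- stood against 1405 in KPR_restored, a log2 ratio of 0.52. For the 10 other genes the sums were 437 and 441. The mevalonate steps account for most of the gain, with 403 FPKM in KPR- and 679 FPKM in KPR_restored, of which *Fdps* alone provided 179 and 362. The squalene steps summed to 176 and 221 FPKM, and the steps from lanosterol onward to 402 and 504 FPKM.

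**Figure D2:**
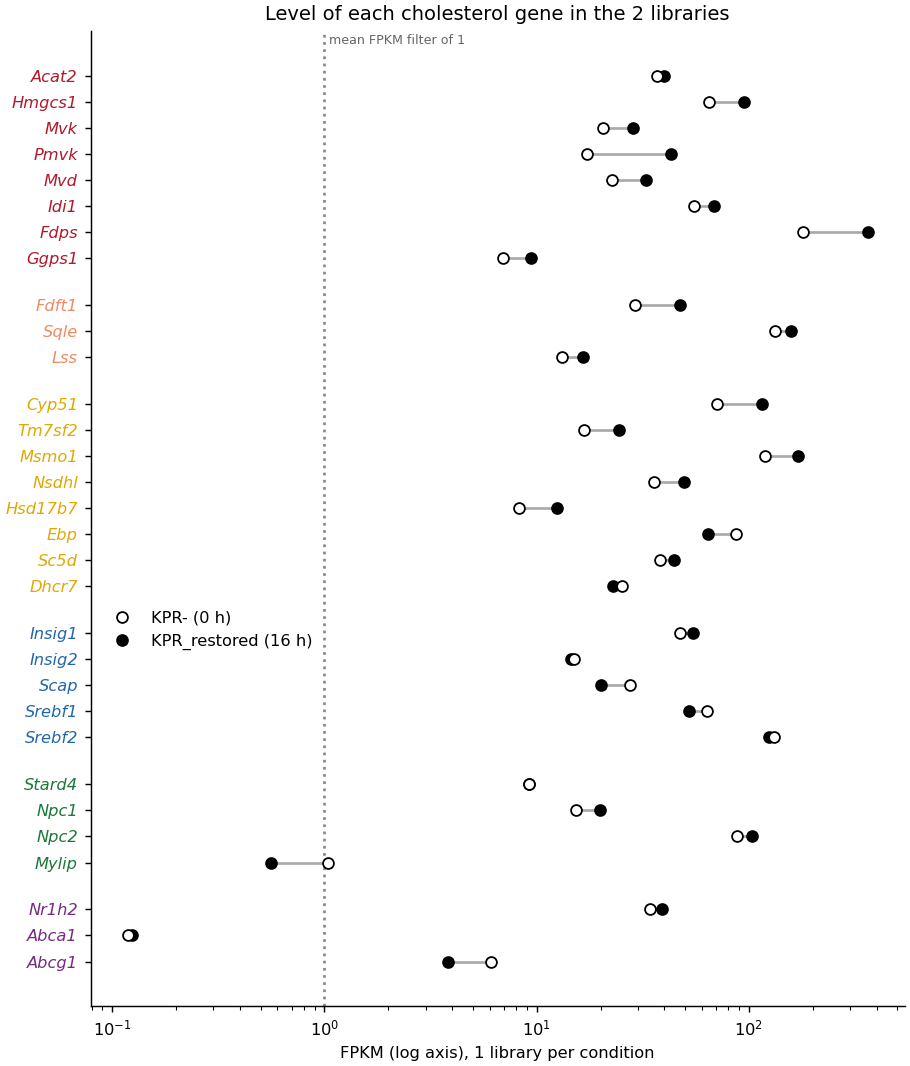
FPKM (x axis, log scale) of each of the 31 genes in KPR- (open circles) and KPR_restored (filled circles), 1 library each, grouped from top to bottom as mevalonate, squalene, lanosterol onward, SREBP control, uptake and transfer, and LXR export. The filled circle lies to the right of the open one in all 11 mevalonate and squalene genes, and the lowest level is that of *Abca1*, at 0.118 and 0.123 FPKM.

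All 8 genes of the mevalonate steps had a positive difference, and 4 of them were called higher (all genes: 12.1%). *Acat2*, the cytosolic thiolase that joins acetyl-CoA units, had 36.9 FPKM in KPR- and 39.9 FPKM in KPR_restored, a difference of 0.11. *Acat3*, a close relative next to it on chromosome 17, went the other way, from 37.7 to 32.9 FPKM, and reads shared by the pair could be assigned to either. *Hmgcs1*, which makes HMG-CoA and carries the SRE core shown above, had 64.5 and 95.04 FPKM. Its difference of 0.56 was called higher.

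The next enzymes phosphorylate and decarboxylate mevalonate. *Mvk*, mevalonate kinase, had 20.5 FPKM in KPR- and 28.4 FPKM in KPR_restored, a difference of 0.47 that fell short of the threshold. *Pmvk*, phosphomevalonate kinase (chromosome 3, 89454541 to 89469013, plus strand), had 17.3 and 43.0 FPKM. Its difference of 1.31, a 2.48-fold higher level, was the largest of the 31 genes and ranked 171 of 11231 among all rises. *Mvd*, mevalonate diphosphate decarboxylase, had 22.7 and 32.8 FPKM, a difference of 0.53. *Idi1*, which isomerizes isopentenyl diphosphate, had 55.2 and 68.4 FPKM, a difference of 0.31.

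At the branch point the genes for the longer prenyl chains differed in size of change. *Fdps*, farnesyl diphosphate synthase (chromosome 3, 89093588 to 89101959, minus strand), was the most abundant of the 31 genes in both libraries, at 179 FPKM in KPR- and 362 FPKM in KPR_restored. Its difference of 1.02 was a 2.02-fold higher level, and it moved from rank 438 to rank 203 among the levels of all 11231 genes. *Ggps1*, which adds a further unit to give the geranylgeranyl chain, had 6.91 and 9.43 FPKM, the lowest levels of the enzymes, and a difference of 0.45. *Pmvk* and *Fdps* were the only members to reach a difference of 1.

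The 3 enzymes that make and close squalene were all above 0, and 1 was called higher (all genes: 12.1%). *Fdft1*, squalene synthase, had 28.95 FPKM in KPR- and 47.3 FPKM in KPR_restored, a difference of 0.71. *Sqle*, the squalene epoxidase that is a rate-limiting step, was much more abundant, at 133 and 157 FPKM, with a difference of 0.24. *Lss*, which folds the epoxide into lanosterol, had 13.2 and 16.5 FPKM, a difference of 0.33. The abundant enzyme of this segment thus changed least in ratio.

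From lanosterol onward, 4 of the 8 genes were called higher (all genes: 12.1%), and *Ebp* and *Dhcr7* were below 0. *Cyp51*, which removes the methyl group at carbon 14, had 70.7 FPKM in KPR- and 116 FPKM in KPR_restored, a difference of 0.71. *Tm7sf2*, the sterol reductase that acts next, had 16.8 and 24.5 FPKM, a difference of 0.55. *Msmo1*, *Nsdhl* and *Hsd17b7* together take off the methyl groups at carbon 4. *Msmo1* had 120 and 171 FPKM, a difference of 0.52. *Nsdhl* had 35.8 and 49.6 FPKM, a difference of 0.47, under the threshold. *Hsd17b7* had 8.22 and 12.5 FPKM, a difference of 0.60.

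The last 3 enzymes differed in direction, and none was called. *Ebp*, the sterol isomerase whose product also binds tamoxifen, had 87.3 FPKM in KPR- and 64.2 FPKM in KPR_restored, a difference of -0.44. *Sc5d*, the desaturase that follows, had 38.0 and 44.2 FPKM, a difference of 0.22. *Dhcr7*, the reductase of the last step on one branch, had 25.2 and 22.8 FPKM, a difference of -0.15. *Ebp* and *Dhcr7* were the only enzymes of the 19 below 0.

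**Figure D3:**
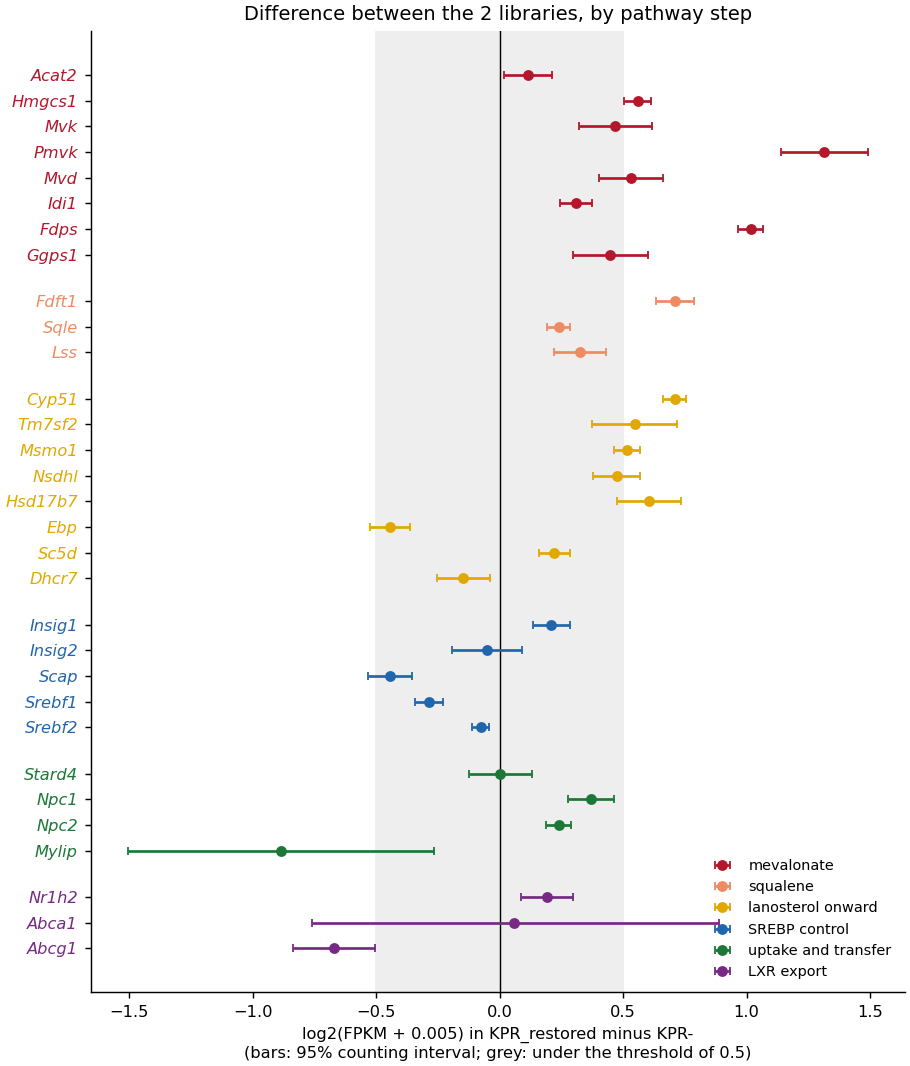
Difference of each of the 31 genes in log2(FPKM + 0.005), KPR_restored minus KPR- (x axis), in order of the pathway, with 95% counting intervals as bars, which cover counting error only, and the range under the threshold of 0.5 in grey. *Pmvk* (1.31) and *Fdps* (1.02) stand farthest to the right, and the wide bars belong to *Mylip* and *Abca1*, the genes with the fewest fragments.

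None of the 5 genes that control SREBP was called in either direction, beside 12.1% of all genes called higher and 9.29% called lower. With 5 genes, 0 calls is near these shares. *Insig1*, which retains the SREBP complex and is itself an SREBP target, had 47.4 FPKM in KPR- and 54.7 FPKM in KPR_restored, a difference of 0.21. *Insig2*, its relative, had 15.1 and 14.5 FPKM, a difference of -0.050. *Scap*, the escort of SREBP, had 27.4 and 20.1 FPKM, a difference of -0.44. Only *Insig1* was above 0 in this group. *Srebf1*, which encodes SREBP-1, had 63.6 and 52.2 FPKM, a difference of -0.29, and *Srebf2*, which encodes the SREBP-2 that drives most sterol genes, had 131 and 124 FPKM, a difference of -0.078. *Srebf1* has SREBP-1a and SREBP-1c transcripts, which a single FPKM cannot tell apart, and mRNA does not show how much SREBP is cut and in the nucleus.

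Of the genes of uptake and transfer, 3 passed the filter and none of these was called (all genes: 12.1% higher, 9.29% lower). *Npc1*, the sterol transporter of the lysosomal membrane, had 15.4 FPKM in KPR- and 19.9 FPKM in KPR_restored, a difference of 0.37. *Npc2*, its soluble partner in the lysosome, had 87.7 and 103 FPKM, a difference of 0.24. *Stard4*, a cytosolic carrier of cholesterol, had 9.24 FPKM in each library, a difference of 0.0010 that lies below 0 under each of the alternative scalings, which shift all genes by -0.0064 to -0.020. *Mylip*, a ubiquitin ligase that marks lipoprotein receptors for breakdown and is an LXR target, had 1.04 and 0.560 FPKM. About 64 and 36 fragments stood behind these values, and the counting interval ran from -1.51 to -0.26 around a difference of -0.88.

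Of the LXR and export genes, 2 passed the filter and 1 of these was called lower (all genes: 9.29%). *Nr1h2*, which encodes LXR beta, had 34.3 FPKM in KPR- and 39.1 FPKM in KPR_restored, a difference of 0.19. *Abca1*, the pump that loads cholesterol onto apolipoproteins, was near the floor in both libraries at 0.118 and 0.123 FPKM. About 26 and 28 fragments stood behind it, and its counting interval of -0.76 to 0.89 spans both directions. *Abcg1*, the pump that passes cholesterol to HDL particles, had 6.11 and 3.83 FPKM. Its difference of -0.67 was the only one of the 29 called lower, at rank 529 of 11231 among all falls.

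Counting error was small beside most of these differences. The depth was estimated as 21690000 fragments for KPR- and 22390000 for KPR_restored, and the 29 genes that passed the filter had from about 370 to 13844 fragments each in KPR-. The 95% counting interval (exact Clopper-Pearson limits) lay above 0 for 21 of the 29, below 0 for 6 and across 0 for *Insig2* and *Stard4*. These intervals do not cover the variation between cultures. Of the 9 higher genes, the interval lay wholly above 0.5 for *Hmgcs1*, *Pmvk*, *Fdps*, *Fdft1* and *Cyp51*. For *Mvd* it ran from 0.40 to 0.66, for *Tm7sf2* from 0.37 to 0.72, for *Msmo1* from 0.46 to 0.57 and for *Hsd17b7* from 0.47 to 0.74.

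Differences in these libraries fell with transcript length. With the genes that passed the filter split by length into 5 groups of like size, the median difference was 0.087 in the group of the shortest transcripts and -0.15 in that of the longest. With the running median over transcript length subtracted, the median of the 29 genes was 0.30. *Mvd*, *Tm7sf2* and *Msmo1* then had differences of 0.46, 0.45 and 0.43, under the threshold, and *Ebp* had -0.53, past it. The other 6 higher genes and *Abcg1* kept their calls, with 1.23 for *Pmvk*, 0.92 for *Fdps* and -0.55 for *Abcg1*. The part of transcript length in the differences was not tested further.

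**Figure D4:**
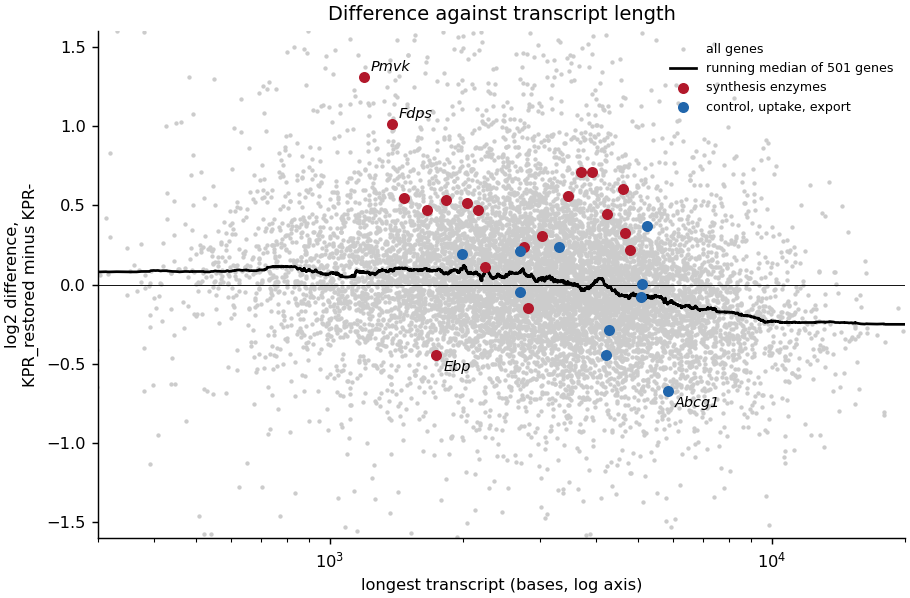
Log2 difference (KPR_restored minus KPR-, y axis) against the longest transcript of each gene (bases, x axis, log scale), with all genes in grey, the running median as a black line, and synthesis enzymes and other members as coloured points. Genes past the edges of the axes are not drawn. The line falls from above 0 for short transcripts to below 0 for long ones, and *Pmvk* and *Fdps* are among the members with the shortest transcripts.

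Some genes share exon bases with a neighbor. *Fdps* shares 1124 of its 4208 annotated exon bases with *Gm43738* on the same strand, and *Tm7sf2* shares 532 of 4403 with *Vps51*, also on the same strand. *Vps51* had 20.001 and 19.4 FPKM. *Fdft1* shares 774 bases with *Ctsb* on the opposite strand, which had 90.5 and 106 FPKM. The library kit keeps the strand, but whether the counting used it is not given in the sources used here.

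Outside the 31 genes, a list of 63 other genes of the pathway was examined, of which 62 were found and 57 passed the filter. Of these 57, 6 were called higher and 6 lower (10.5% each), close to the 12.1% and 9.29% of all genes, and their median difference was -0.030. None of the 13 genes of the non-sterol branches of the mevalonate pathway was called higher and 2 were called lower, near the shares of all genes. *Nus1*, a subunit of the enzyme that makes dolichol, went from 30.99 to 21.6 FPKM (-0.52), and *Pdss1*, which builds the ubiquinone side chain, went from 12.3 to 8.55 FPKM (-0.52). *Nus1* was under the threshold with the length trend subtracted (-0.45), and *Pdss1* with a pseudocount of 1 FPKM (-0.47). *Lbr*, the lamin B receptor, is a sterol reductase of the same step as *Tm7sf2*, and went from 57.8 to 38.8 FPKM, a difference of -0.58 against 0.55 for *Tm7sf2*.

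Among 11 genes of SREBP processing and sterol-dependent degradation, 0 were called higher and 2 lower. For 11 genes these counts are near the shares of all genes, 12.1% higher and 9.29% lower. A difference below 0 was seen in 8 of the 11, and 27.3% were above 0, beside 51.0% of all genes. *Rnf145*, a ubiquitin ligase of the endoplasmic reticulum, had 41.0 FPKM in KPR- and 25.6 FPKM in KPR_restored (-0.68). The proteases *Mbtps1* and *Mbtps2*, which cut SREBP in the Golgi, had a difference of -0.31 each, under the threshold.

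Uptake and transfer held calls in both directions, with 4 of 20 genes higher and 1 lower. These are 20% and 5%, beside 12.1% and 9.29% of all genes. *Vldlr*, a receptor for triglyceride-rich lipoproteins, had 11.5 FPKM in KPR- and 23.0 FPKM in KPR_restored, a difference of 1.00. The sterol carriers *Stard5*, *Osbpl9* and *Gramd1b* had differences of 1.03, 0.66 and 0.57, from 2.83, 15.2 and 4.597 FPKM in KPR-. *Gramd1b* was under the threshold with a pseudocount of 1 FPKM (0.48). *Tmem97*, an endoplasmic reticulum protein known to bind Npc1, had 97.7 and 53.9 FPKM, and its difference of -0.86 was the largest fall among the 57. *Lrp8* had a difference of -0.499, just short of the threshold, which it passed under each of the alternative scalings.

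The largest difference on the list was that of *Soat2*, which esterifies cholesterol for storage. It had 0.953 FPKM in KPR- and 4.43 FPKM in KPR_restored, from about 41 and 198 fragments. This gives a difference of 2.21 and counting limits of 1.73 and 2.75. *Soat2* passed the filter (mean 2.69 FPKM) only through KPR_restored, where it is high, so its call as higher leans on that selection. With a pseudocount of 1 FPKM, close to its level in KPR-, the difference of *Soat2* was 1.47. *Soat1*, the other enzyme of this step, was far more abundant at 53.4 and 42.9 FPKM, a difference of -0.32. Of the LXR partners, LXR targets and oxysterol enzymes, 6 of 10 passed the filter and 1 was called higher (all genes: 12.1%). This was *Hsd3b7*, an enzyme of bile acid synthesis, with 21.8 and 33.6 FPKM (0.62). The LXR targets *Arl4c* and *Lpcat3* had differences of -0.10 and -0.029.

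**Figure D5:**
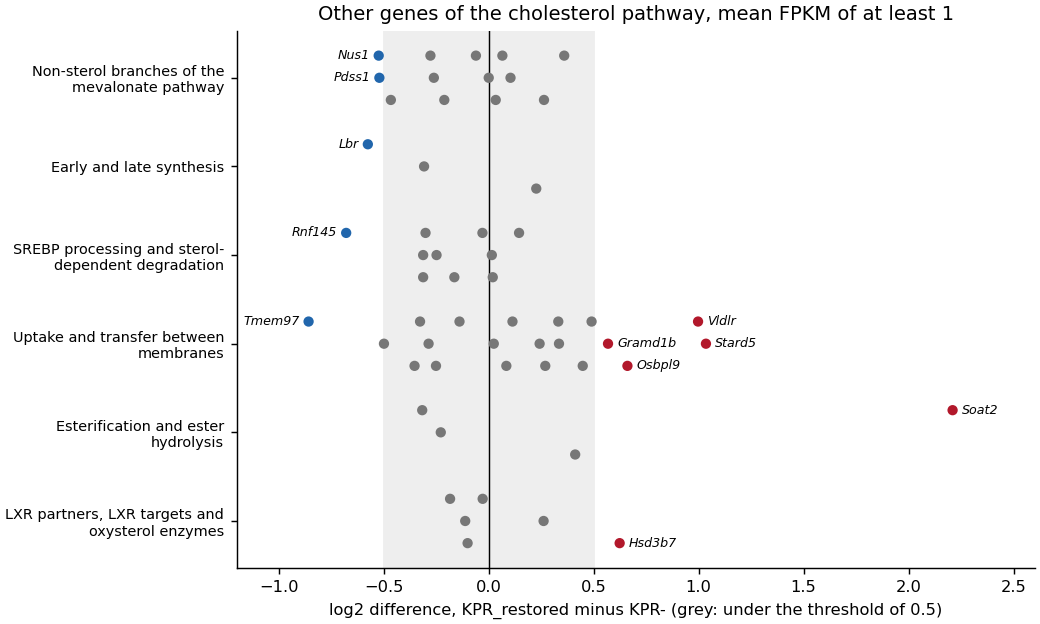
Log2 difference (KPR_restored minus KPR-, x axis) of the other pathway genes that passed the FPKM filter, without 1 gene that is not reported here, as points in 6 rows by role, with genes past the threshold of 0.5 coloured and named. The 6 higher genes lie in the rows of uptake, esterification and LXR, and the lower genes in the 4 upper rows.

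Checks of the whole libraries gave the following. *Runx3* was at 0.348 and 0.349 FPKM, which is about 28 and 29 fragments, and its counting limits of -0.80 and 0.81 span both directions, so the value per gene does not check the labels, and every direction above is that of the library labelled KPR_restored against the library labelled KPR-. *Trp53* had 2.12 and 2.17 FPKM. The 6 epithelial markers were present, at 86.4 to 1931 FPKM in KPR- and 82.0 to 1676 FPKM in KPR_restored. All 5 alveolar markers were under 1 FPKM in both libraries, and *Sftpc*, *Sftpb* and *Lamp3* were at 0, so the libraries labelled as lung cancer show epithelial but hardly any alveolar marker mRNA. The 7 fibroblast and smooth muscle markers summed to 13.0 FPKM in KPR- and 5.43 FPKM in KPR_restored, of which *Col1a1* gave 12.2 and 4.21. Of the 5 leukocyte and macrophage markers, *Cd14* gave 76.7 of a summed 82.5 FPKM in KPR- and 88.0 of 95.9 in KPR_restored. *Cd68* went from 3.08 to 6.78 FPKM and *Csf1r* from 2.68 to 1.19 FPKM, while *Adgre1* was at 0 in both libraries and *Ptprc* at 0 and 0.00892. The 4 endothelial markers summed to 1.17 and 2.22 FPKM. The part of other cells in the differences above was not tested.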

How the data were processed

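mRNA of 1 library of KPR- cells and 1 library of KPR_restored cells was examined, grouped by the sample labels. The authors selected poly(A) RNA, made directional libraries, trimmed the paired-end reads, mapped them with TopHat and deposited FPKM values estimated with Cufflinks, on mm10 per the submitters' processing notes. Versions and the annotation are not given in the sources used here, and read counts were not used.

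From these deposited FPKM values, log2(FPKM + 0.005) was taken with no further scaling and subtracted between the libraries, with a threshold of 0.5 and a mean FPKM of at least 1. This understates the change of genes near the pseudocount. Depth was estimated from the steps that whole fragments make in low FPKM values of genes with a single transcript length in GENCODE M21 (GRCm38). Of 557 and 573 such genes with 0.5 to 5.5 fragments, 78.5% and 80.1% lay within 0.1 of a whole number, with a fragment length of 209 bases. Fragments of each gene follow from its longest transcript with a RefSeq counterpart, so they are estimates. Of the 23183 symbols, 22156 matched a transcript by symbol and 672 by a synonym. Promoter sequences are from RefSeq (GRCm38.p6), and *Erg28* of the wider list is 0610007P14Rik in the files.

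The 31 members, the lists and the thresholds were chosen with earlier results of these data known. All 31 members were described, and of the other genes those called higher or lower except 1 that is counted but not reported here, with further genes named after their values were seen (*Acat3*, *Soat1*, *Arl4c*, *Lpcat3*, *Mbtps1*, *Mbtps2*, *Lrp8*). The depth fit and the intervals were tested on simulated data. The simulated fragments were Poisson draws made with the same longest transcripts that the intervals use. That test therefore does not cover errors from the choice of transcript or the annotation. Scripts ran under Python 3.11.15 with scipy 1.17.1, pandas 2.3.3 and numpy 2.4.6, and figures were drawn in matplotlib 3.10.9.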

Additional observations from a re-analysis of the deposited data

How the results depend on the processing

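The 9 higher members were also called with pseudocounts of 1 and 0.1, without the FPKM filter, with a mean FPKM of at least 5, as TPM and after centring on the median gene. Scaling to the same upper quartile left 8 of them (without *Msmo1*), removal of the transcript length trend left 6, and a threshold of 1 left 2. Lower members numbered 2 without the filter (with *Mylip*), 2 with the length trend removed (with *Ebp*), 0 with a mean FPKM of at least 5 and 0 with a threshold of 1. The median of the members ran from 0.24 without the filter to 0.32 with a mean FPKM of at least 5. Of all genes, 3193 were higher and 3002 lower without the filter, 872 and 641 with a mean FPKM of at least 5, and 325 and 155 with a threshold of 1. Of the other pathway genes, 2 were higher and 0 lower with a threshold of 1. With the transcript length trend removed, 8 of them were higher and 6 lower. As TPM, scaled to the same upper quartile or centred on the median gene, 6 were higher and 7 lower (with *Lrp8*). With a pseudocount of 1, 5 were higher (without *Gramd1b*) and 5 lower (without *Pdss1*), and *Soat2* was at 1.47. Fewer genes past a stricter filter or threshold follow from its construction. Counting intervals excluded 0 for 28 of the 31 members with the longest and with the shortest transcript. Depth limits *Abca1* and *Mylip*, and with 1 library per condition no variation between cultures was measured. No paired analysis was possible because each condition has 1 library.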
